A study of Homo sapiens with 6 samples.

Results

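The clustered protocadherins are 3 neighbouring arrays of tandem genes on chromosome 5, and all 53 protein-coding genes of the PCDHA, PCDHB and PCDHG arrays in the RefSeq gene table were taken as members, out of 19974 protein-coding genes in all. The alpha array holds 15 genes over chr5:140786140-141012347, the beta array 16 genes over chr5:141051374-141249365 and the gamma array 22 genes over chr5:141330514-141512975 (hg38). For each member, the share of the gene body and of the 10 kb centred on the gene start that lay inside called LaminB1 regions was measured in each library. LaminB1 CUT&RUN was done in HCT116, a human colorectal carcinoma line, in 2 groups with 2 LaminB1 libraries and 1 IgG library each. CUT&RUN releases the chromatin bound by an antibody with a tethered nuclease, so LaminB1 reads come from sequence near the nuclear lamina. Both endogenous TOP2A alleles carried the mini auxin-inducible degron (TOP2A mAID) in both groups, and all cells were held in G1 with 2 uM palbociclib, an inhibitor of the CDK4 and CDK6 kinases, for 28 h. The controls kept TOP2B; the labels call them wildtype although they carry the degron tag, and no auxin treatment is given for them. The double-loss cells were TOP2A mAID/TOP2B -/- and were treated for 8 h with 500 uM auxin, a time that the series text says eliminates as much as 95% of the TOP2A protein. The labels call them a double knockout, but TOP2A was degraded and only TOP2B was knocked out, with CRISPR/Cas9; how many clones were used is not given. The labels do not say that replicates were separate cultures, so p-values measure only the spread between these libraries, which may be technical.

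Clustered protocadherins are cell-surface cadherins best known in neurons. Each neuron expresses its own small combination of them, and homophilic contact between matching combinations lets a neuron tell its own branches from those of others. In the alpha and gamma arrays, every variable first exon has its own promoter and is spliced to constant 3' exons that all genes of the array share; beta genes are single-exon genes with no shared exons. In neurons a promoter is chosen by looping between CTCF sites at the promoters and distal enhancers, brought about by cohesin, while unchosen promoters are held silent by DNA methylation and heterochromatin factors. The last genes of the alpha and gamma arrays, PCDHAC1, PCDHAC2, PCDHGC3, PCDHGC4 and PCDHGC5, are the C-type genes, which are regulated differently from the rest and are more widely expressed among neurons.

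The 250 bases upstream of 5 gene starts are shown because these members stand for the patterns seen in the region lists. PCDHB1 and PCDHB5 were covered by LaminB1 regions in double loss 1 and 2 but in no control list, PCDHB2 in all 4 lists, the PCDHA6 start in 1 double-loss list, and the PCDHGA9 start in none. The sequences are from RefSeq (GRCh38.p14, plus strand, 5' to 3') and lie at chr5:141051124-141051373, chr5:141134956-141135205, chr5:141094365-141094614, chr5:140827710-140827959 and chr5:141402528-141402777. Capitals mark a shared word of 9 letters, described after the sequences.
PCDHB1: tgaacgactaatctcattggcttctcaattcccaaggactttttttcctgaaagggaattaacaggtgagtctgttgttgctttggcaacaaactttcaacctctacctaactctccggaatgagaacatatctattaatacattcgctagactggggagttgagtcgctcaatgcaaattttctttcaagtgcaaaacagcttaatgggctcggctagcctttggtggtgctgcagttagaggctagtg
PCDHB5: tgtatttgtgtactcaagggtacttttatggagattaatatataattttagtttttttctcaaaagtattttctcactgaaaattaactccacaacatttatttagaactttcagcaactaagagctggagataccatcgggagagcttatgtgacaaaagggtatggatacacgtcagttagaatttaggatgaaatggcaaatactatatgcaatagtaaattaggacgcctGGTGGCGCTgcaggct
PCDHB2: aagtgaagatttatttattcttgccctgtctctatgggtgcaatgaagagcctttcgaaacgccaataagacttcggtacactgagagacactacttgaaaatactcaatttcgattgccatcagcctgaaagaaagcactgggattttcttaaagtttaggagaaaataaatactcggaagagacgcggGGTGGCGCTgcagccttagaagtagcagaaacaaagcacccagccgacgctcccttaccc
PCDHA6: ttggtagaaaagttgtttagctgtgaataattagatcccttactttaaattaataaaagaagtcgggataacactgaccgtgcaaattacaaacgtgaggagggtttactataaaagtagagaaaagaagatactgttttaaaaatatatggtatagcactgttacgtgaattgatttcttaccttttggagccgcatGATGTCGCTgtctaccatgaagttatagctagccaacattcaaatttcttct
PCDHGA9: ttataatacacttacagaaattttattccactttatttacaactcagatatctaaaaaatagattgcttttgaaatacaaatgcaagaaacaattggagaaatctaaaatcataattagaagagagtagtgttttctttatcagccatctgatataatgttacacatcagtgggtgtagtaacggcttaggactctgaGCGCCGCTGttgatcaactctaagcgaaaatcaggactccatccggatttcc

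Promoters of 47 of the 53 members were in the RefSeq promoter table; the others, PCDHA3, PCDHA13, PCDHB6, PCDHB11, PCDHGA12 and PCDHGC5, were not. The 3 words were read from the members' own promoters and then searched on both strands, so their counts are a description. GGTGGCGCT stood upstream of 12 of 14 beta genes, all but PCDHB1 and PCDHB8, 16 to 84 bases before the start, and in 0.428% of all 27305 promoters of this length. GATGTCGCT stood upstream of 9 of 13 alpha genes, all but PCDHA9, PCDHA11, PCDHAC1 and PCDHAC2, and in 0.0879% of all promoters. CAGCGGCGC stood upstream of 10 of 20 gamma genes and in 0.945% of all promoters. In all 10, PCDHGA9 among them, it reads on the other strand, so the sequence shows GCGCCGCTG. No word of one array was found upstream of the members of another. PCDHB1, without the beta word, and PCDHB5, with it, had the same LaminB1 pattern, while PCDHB5 and PCDHB2 both carry the word and differed in their pattern. Whether the word goes with LaminB1 coverage was not tested.

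The 4 region lists held 10771 to 13599 regions over 549 to 622 Mb, with 7263458 to 8351031 LaminB1 reads inside them. The control libraries, against which the regions were scored, had 3823610 to 4116069 reads in the control lists and 5401269 to 5495408 in the double-loss lists. TOP2A, TOP2B and LMNB1, the gene for LaminB1, were 0% covered in every list, so coverage of these loci does not check the loss of either enzyme. In regions with the same edges, control reads were equal within a group and nearly always unequal between groups, so the groups were scored against different libraries. In every group comparison, the effects of genotype, auxin, cell line and control library cannot be told apart.

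A larger share of the cluster lay in LaminB1 regions in both double-loss libraries than in either control. From the PCDHA1 start to the end of the gamma array, 727 kb, 22.7% and 31.6% were covered in control 1 and 2, and 50.1% and 51.7% in double loss 1 and 2. The group means were 27.2% ± 6.32 (SD, n = 2) and 50.9% ± 1.18 (SD, n = 2), a difference of 23.7 percentage points; the exact permutation test gave a two-sided p of 0.333, the smallest that 2 against 2 libraries allow. The rest of chromosome 5 was covered at 27.7%, 25.4%, 27.6% and 27.7% in the same order, a difference of 1.08 points (exact permutation p = 1). Taken within each library, the cluster minus the rest of the chromosome was -5.04 and 6.28 points in the controls and 22.4 and 24.1 points in double loss. That within-library contrast thus differed by 22.6 points between the groups, without overlap (exact permutation p = 0.333).

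**Figure D1:**
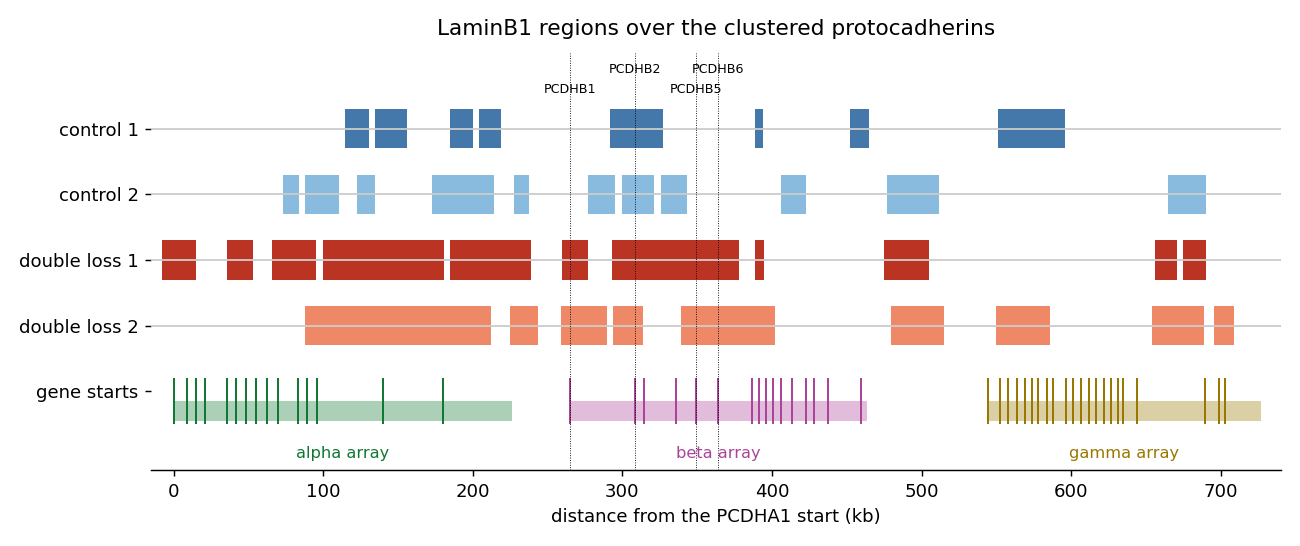
LaminB1 regions of each list (bars, 1 row per library) and the starts of the 53 genes (ticks) against distance from the PCDHA1 start in kb. The PCDHB1, PCDHB5 and PCDHB6 starts (dotted lines) are under bars in both double-loss rows and in neither control row, while PCDHB2 is under a bar in all 4.

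The 3 arrays were then compared as separate stretches. The alpha array was covered at 29.6% and 38.5% in the controls and 81.0% and 55.4% in double loss. Its means were 34.0% ± 6.25 and 68.2% ± 18.1 (SD, n = 2 each), a difference of 34.2 points with no overlap (exact permutation p = 0.333). The beta array was covered at 25.9% and 36.9% in the controls and 51.8% and 54.4% in double loss. Its means were 31.4% ± 7.73 and 53.1% ± 1.79 (SD, n = 2 each), a difference of 21.7 points, again with no overlap (exact permutation p = 0.333). The gamma array was covered at 24.7% and 13.7% in the controls and 16.4% and 46.0% in double loss, so the groups overlapped. Its difference of 12.1 points (exact permutation p = 0.667, n = 2 each) rested on double loss 2 and was -2.74 points without that library.

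**Figure D2:**
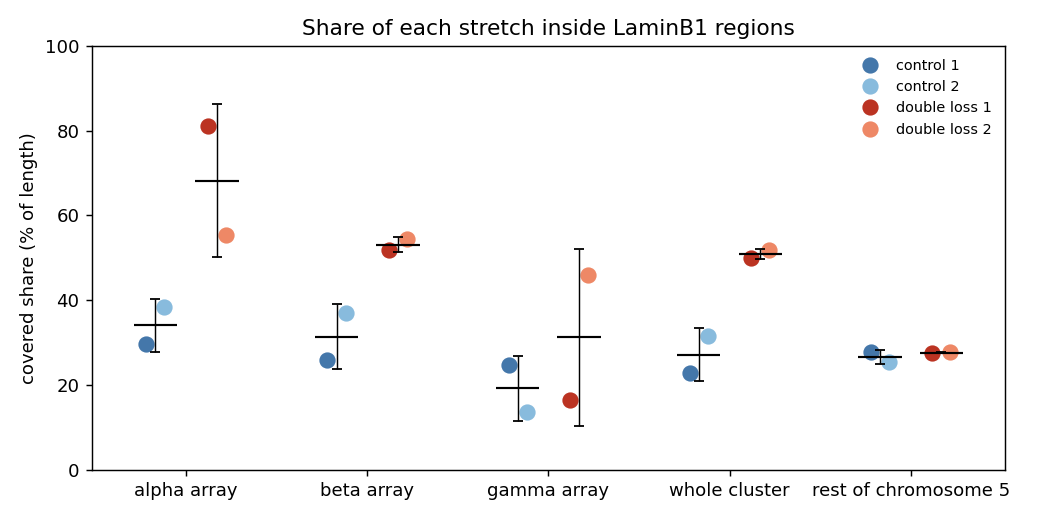
Covered share (% of length) of each array, of the whole cluster and of the rest of chromosome 5, with 1 point per library, group means as horizontal lines and SD as error bars. Double-loss points lie above both controls in alpha, beta and the whole cluster, and the groups overlap in gamma and in the rest of the chromosome.

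The difference between the groups was not shown to differ between arrays. It was 12.5 points smaller in beta than in alpha (exact permutation p = 1, 2 libraries a group), and this order turned to 1.58 points larger in beta without double loss 1. It was 9.63 points larger in beta than in gamma (exact permutation p = 0.667, 2 libraries a group), but -1.31 points without control 1 and -3.90 without double loss 1. It was 22.1 points smaller in gamma than in alpha (exact permutation p = 0.667, 2 libraries a group), and 5.48 points larger without double loss 1. The order of the arrays thus rested on single libraries, mainly double loss 1, which covered the most of the alpha array.

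Most of the cluster's sequence was called in some lists and not in others. Of the 727 kb, 209 kb were in no list, 136 kb in 1, 193 kb in 2, 143 kb in 3 and 46 kb in all 4. Stretches that the 2 double-loss lists shared and the controls lacked, called gained here, numbered 8 and added up to 87 kb, and the reverse pattern came to 1 kb. Leaving out 1 library loosens both definitions, so these lengths could only stay the same or grow. Gained sequence was then 180 kb without control 2 and 138 kb without double loss 2. The reverse was 20 kb without control 1, 24 kb without control 2 and 12 kb without double loss 1. The longest gained stretch, 35 kb at chr5:141129001-141164000, contains the PCDHB5 and PCDHB6 starts. Another, 17 kb at chr5:141046001-141063000, contains the whole of PCDHB1. The other gained stretches of over 5 kb were 17 kb at chr5:140942001-140959000, between the PCDHAC1 and PCDHAC2 starts, and 9 kb at chr5:141442001-141451000, between the PCDHGA12 and PCDHGC3 starts. Neither holds a member's start.

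**Figure D3:**
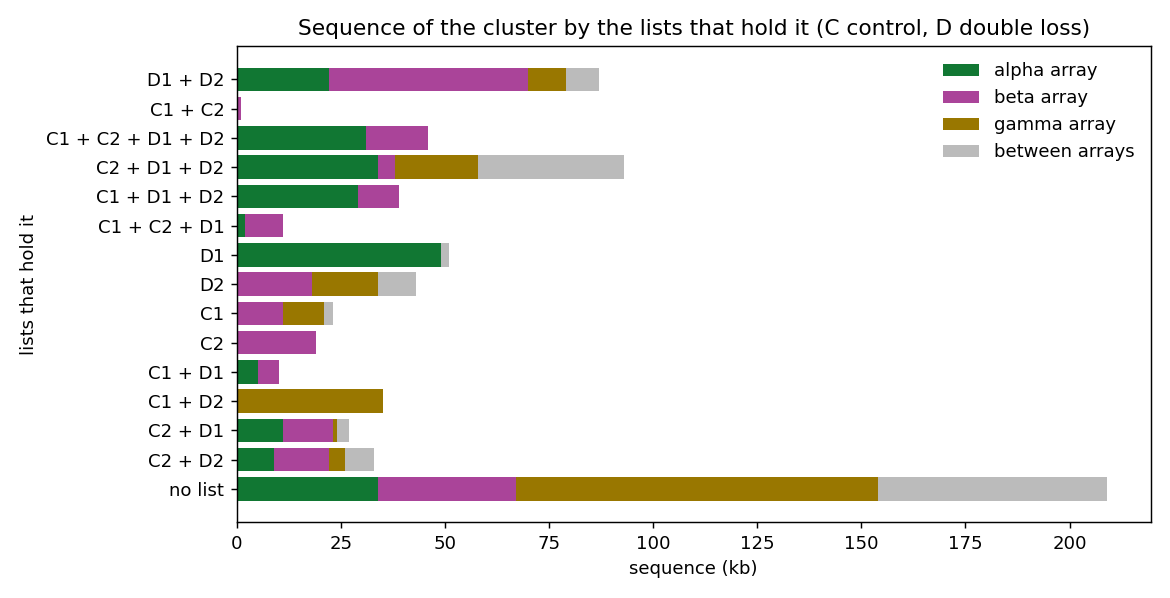
Length of cluster sequence in kb (horizontal axis) for each combination of lists that holds it, with C for control and D for double loss and colours for the arrays. The bar for both double-loss lists alone is 87 kb, with its largest share in beta, and the bar for both control lists alone is 1 kb. With 1 library left out, which can only keep or lengthen them, they are 126 to 180 kb and 1 to 24 kb.

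The sequence that all 4 lists held lay in alpha and beta. Its longest stretches were 15 kb at chr5:140971001-140986000, inside the PCDHAC2 body, and 14 kb at chr5:141086001-141100000, which holds PCDHB2. The longest stretch in no list was 58 kb at chr5:141382001-141440000, with 10 gamma gene starts from PCDHGA7 to PCDHGA12. Others in no list were 35 kb around PCDHGA1, 29 kb with PCDHB13 and PCDHB14, and 21 kb with PCDHA3, PCDHA4 and PCDHA5. The double-loss lists shared 265 kb, which was 72.8% of the 364 kb of double loss 1 and 70.5% of the 376 kb of double loss 2. The control lists shared 58 kb, 35.2% of the 165 kb of control 1 and 25.2% of the 230 kb of control 2. Each control thus shared more with the longer double-loss lists than with the other control. Double loss 1 and 2 held 64.2% and 72.7% of control 1, and 77.0% and 74.8% of control 2.

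In the beta array, 3 genes rose from uncovered to fully covered. PCDHB1, PCDHB5 and PCDHB6 each had 0% of the gene body covered in control 1 and 2 and 100% in double loss 1 and 2. PCDHB1, the first gene of the array, stands apart from its neighbours and is often described as a divergent beta member; PCDHB5 and PCDHB6 are ordinary beta genes with 1 coding exon. In limma's fit over all genes, the adjusted p was 0.0142 for each. These were the 3 calls among the 53 members, beside 51 genes called higher of 3058 tested, 1.67%, and 30 called lower, 0.981%, or 2.65% called in all. All 3 entered the test only through the double-loss lists, so they had to differ. PCDHB5 and PCDHB6 lie in 1 region in each double-loss list, so their calls are not independent of each other. The calls ended when 10 kb were added on each side of the genes, but there no gene of 3382 tested was called. The 3 genes then had limma adjusted p = 0.312, 0.120 and 0.0513 in map order, with differences of 62.6, 91.9 and 100 points. Their calls also ended when the upper 50% of regions were used, where 68 of 2009 genes were called. Each difference was 50 points there (limma adjusted p = 0.547).

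For the same 3 genes, the 10 kb around the start went from 0% and 0% to 100% and 100%. These windows overlap the gene bodies, so they largely repeat the result above. They too entered the test only through the double-loss lists, so they had to differ. Their adjusted p was 0.0589 each in limma's fit of 1720 windows, and no window of any gene passed 0.05 there. At an unadjusted p under 0.05 there were 197 windows, 11.5% of those tested, among them these 3 of the members. Windows above both controls in both double-loss libraries were PCDHB1, PCDHB5, PCDHB6, PCDHB8 and PCDHB16, all beta, or 5 of the 41 members with any covered window, and the share over all windows tested was 10.6%. No member's window was below both controls, against 9.42% of all windows tested. The median difference was 0 points both over the 53 members and over all windows tested.

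The 10 beta genes beyond PCDHB6 were mixed, with a higher double-loss mean for 4 bodies, a lower one for 4 and no coverage for 2. From PCDHB1 to the PCDHB6 end, 34.3% and 54.9% were covered in the controls and 84.3% and 71.5% in double loss. From the PCDHB7 start to the end of the array, the shares were 21.3% and 22.2% in the controls and 7.82% and 20.02% in double loss. This division was chosen after the values were seen and was not tested. PCDHB8 was 80.4% and 0% covered in the controls and 100% in both double-loss libraries, above both controls but without passing the test (limma adjusted p = 0.540). PCDHB7 was 37.0% and 0% covered in the controls and 37.0% and 100% in double loss, so its groups overlapped. PCDHB16 and PCDHB9 were covered in double loss 2 alone, at 100% and 19.2%. PCDHB2 was 100% covered in every list, by regions of 35 and 21 kb in the controls and 85 and 20 kb in double loss. Their deposited log2 fold, which compares regions within 1 list, was 0.31 and 0.23 in the controls, at percentiles 9.6 and 3.1 of their lists. In double loss it was 0.57 and 0.60, at percentiles 62.8 and 72.1. PCDHB2 was the one member body called when the upper 50% of regions were used, 100 points higher in double loss (limma adjusted p = 0.0147). With those regions it was at 0% in both controls, so it too entered the test only through the double-loss lists and had to differ. PCDHB3 was 100% covered in all lists but double loss 2, where it had 0%. PCDHB10 and PCDHB11 were 100% covered in control 2 and 0% elsewhere, PCDHB12 was 7.32% covered in control 2 alone, and PCDHB15, the last gene, was 100% covered in control 1 and 0% elsewhere. PCDHB13 and PCDHB14 were at 0% in all 4. The beta genes therefore included both directions, with a higher double-loss mean for 8 bodies, a lower one for 5 and no difference for 3.

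In the alpha array, all 15 gene bodies had a higher mean in double loss, and 14 were above both controls in both libraries. All alpha genes end at the same constant exons, so these bodies are nested and count the same sequence many times. PCDHA1, the longest at 226 kb, was 29.6%, 38.5%, 81.0% and 55.4% covered in control 1, control 2, double loss 1 and double loss 2. PCDHA13 was 51.4% and 52.1% covered in the controls and 94.0% and 90.02% in double loss, with an adjusted p of 0.0963 in limma's fit, the lowest in the array. PCDHAC1 went from 53.1% and 47.6% to 95.4% and 84.9% (limma adjusted p = 0.198). PCDHAC2, the last gene, overlapped between groups at 65.4% and 73.1% against 91.3% and 71.7%. No alpha body passed 0.05.

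The alpha gene starts gave a different picture from the bodies. The PCDHA1, PCDHA2 and PCDHA6 windows were 100% covered in double loss 1 and 0% in the other 3 lists, and PCDHA4 was at 0% in all. In double loss 1, 1 region held the PCDHA1 and PCDHA2 starts, with a deposited log2 fold of 0.27, at percentile 8.1 of that list. The region over the PCDHA6 start had 0.48, at percentile 42.3. In double loss 1, 14 of the 15 alpha windows were covered at least in part, against 4 in double loss 2, 2 in control 1 and 5 in control 2. The PCDHA9 window was covered only in part and only in double loss 1. At the C-type promoters, the PCDHAC1 window was 100% covered in control 1 and in both double-loss lists and 0% in control 2. The PCDHAC2 window was at 4.75%, 100%, 60.0% and 100% in the same order. Taken as stretches, both ends of the array were above both controls in both double-loss libraries. From the PCDHA1 start to the PCDHAC1 start, 15.2% and 32.8% were covered in the controls and 72.2% and 37.3% in double loss, so double loss 2 was close to control 2. From the PCDHAC1 start on, 53.1% and 47.6% were covered in the controls and 95.4% and 84.9% in double loss. Of the 51 kb held by double loss 1 alone, 49 kb were in this array.

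In the gamma array, all 22 bodies had a higher mean in double loss and 15 were above both controls, but these bodies are nested too and none passed 0.05 (lowest limma adjusted p = 0.582). PCDHGA1, the first gene, was 24.7%, 13.7%, 16.4% and 46.0% covered, in the order used above, with its own start window at 0% in all 4. Over the 3 arrays, 33 of the 53 bodies were above both controls and none below both; over all 3058 bodies tested, 21.5% were above and 13.9% below. The median difference was 23.04 points over the members and 0.77 points over all tested bodies. Counting windows in place of nested bodies left no alpha and no gamma member above both controls.

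The gamma start windows that were covered followed single libraries rather than groups. PCDHGA3, PCDHGA4, PCDHGA5, PCDHGB1 and PCDHGB2 were 100% covered in control 1 and double loss 2 and 0% in the other lists. PCDHGA6 was 100% covered in control 1, 31.1% in double loss 2 and 0% in the others, and PCDHGA7 was 42.6% covered in control 1 alone. From PCDHGB4 to PCDHGA12 all windows were at 0% in every list. Of the C-type genes, PCDHGC3 was at 0%, 50.3%, 50.3% and 40.4%, so control 2 resembled double loss. PCDHGC4 and PCDHGC5 were covered in double loss 2 alone, at 80.3% and 100%. No gamma window had non-overlapping groups.

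**Figure D4:**
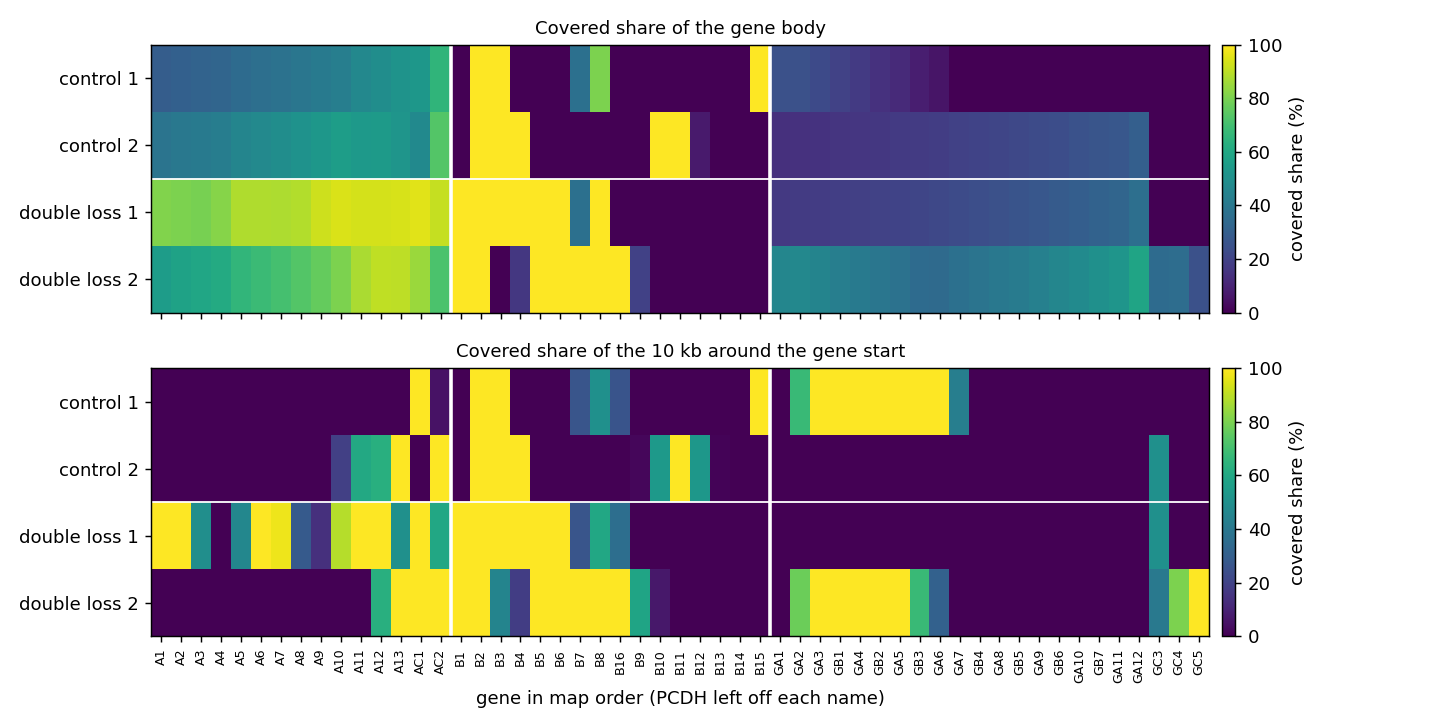
Covered share (%, colour) of the gene body (upper panel) and of the 10 kb around the start (lower panel) for the 53 members in map order, with 1 row per library and white lines between the arrays and groups. Of the 15 alpha bodies, 14 are brighter in both double-loss rows than in both control rows, PCDHAC2 being the exception, whereas windows are bright in both double-loss rows and dark in both control rows at PCDHB1, PCDHB5 and PCDHB6.

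The regions over the cluster were wider in double loss, with medians of 15.5 and 18 kb in the controls and 23 and 35 kb in double loss, for 8, 11, 11 and 9 regions. They held 1847 and 2595 LaminB1 reads over 165 and 230 kb in the controls, and 4594 and 4581 over 372 and 376 kb in double loss. LaminB1 reads per kb were 11.2 and 11.3 in the controls and 12.3 and 12.2 in double loss. Control-library reads per kb were 6.93 and 6.24 in the controls and 7.99 and 8.12 in double loss. The deposited log2 fold of LaminB1 over control reads had medians of 0.44 and 0.59 in the controls and 0.48 and 0.57 in double loss; it is the authors' own value and compares regions within 1 list. The region over PCDHB5 and PCDHB6 spanned chr5:141079001-141164000 in double loss 1, with 980 LaminB1 and 632 control reads, and chr5:141125001-141188000 in double loss 2, with 745 and 544. Its log2 fold was 0.57 in double loss 1, at percentile 62.8 of that list, and 0.38 in double loss 2, at percentile 22.4. The region over PCDHB1 had 215 LaminB1 and 146 control reads in double loss 1 and 380 and 242 in double loss 2. The region over the PCDHAC1 start in double loss 1, 81 kb long, had 1108 and 626 reads and a log2 fold of 0.76, at percentile 92.4.

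**Figure D5:**
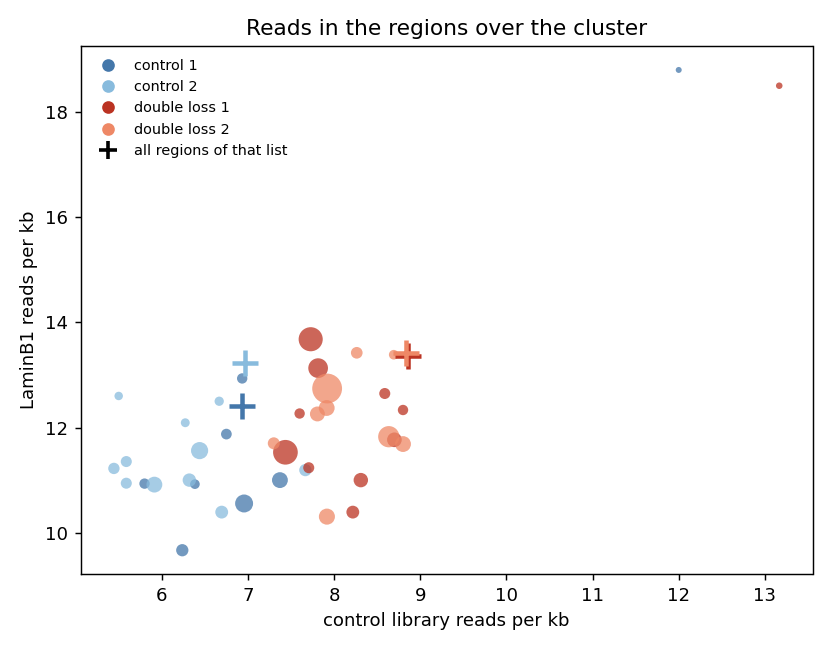
LaminB1 reads per kb against control-library reads per kb for each region over the cluster (points, area proportional to width), with crosses for all regions of the same list. Double-loss points lie to the right of most control points, and the 2 points at the upper right, near 18.8 and 18.5 LaminB1 reads per kb, are the short region over PCDHB8.

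Read density in the control libraries moved with the groups. Each kb was given the mean reads per kb of the whole region that held it. Regions of different widths thus enter, and reads inside the shared sequence alone were not counted. For the 46 kb that all 4 lists held in the cluster, control-library values were 0.17 higher in double loss on the log2 scale. LaminB1 values were 0.10 higher. For the sequence held by all 4 lists on the rest of chromosome 5, these region values differed by 0.38 for the control library and 0.06 for LaminB1. The part of the control library in the cluster's difference was not tested. The region over PCDHB8 stood out in both axes, with 18.8 and 18.5 LaminB1 reads per kb and 12 and 13.2 control reads per kb in control 1 and double loss 1, against 12.4 and 13.4 and 6.93 and 8.86 over all regions of those lists.

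The cluster was isolated from other LaminB1 regions. The nearest region upstream of PCDHA1 outside the cluster ended 3055 to 3075 kb away in the 4 lists, and the nearest downstream began 1589 to 1900 kb from the end of the gamma array. The first region over the cluster began at -8.14 kb from the PCDHA1 start in double loss 1, and at 72.9 to 115 kb in the other lists. None of the 26 protein-coding genes in the 1000 kb upstream and the 12 downstream was covered in any list, so the nearest neighbours HARS1, HARS2, ZMAT2, DIAPH1, HDAC3 and RELL2 were at 0%. SLC25A2, a mitochondrial ornithine carrier, and TAF7, a subunit of the general transcription factor TFIID, lie between beta and gamma and were also at 0% in every list. Between alpha and beta the covered share was 0% and 25.6% in the controls and 46.2% and 61.6% in double loss. Between beta and gamma it was 2.01%, 43.1%, 37.0% and 43.1%, with overlap.

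The same counts were made for other gene groups. Of 851 chromosome 5 genes outside the cluster, 222 were covered in some list, 38 were above both controls and 33 below, and 7 were called, 3 higher and 4 lower. Of 171 olfactory receptor genes on chromosome 11, another family of tandem arrays, 86 were covered, 4 were above both controls and 1 below, and 1 was called, lower. Mean coverage was 26.6% and 49.7% for the members in control and double loss, 13.7% and 12.7% for the other chromosome 5 genes, and 29.6% and 32.9% for the olfactory receptors. These means are not alike, since nested alpha and gamma bodies count the same sequence many times. Of the 53 members, 51 were covered in some list. Of 11 non-clustered protocadherins, the related cadherins encoded outside the arrays, PCDH9 alone was covered, at 5.18% in control 1 only. Of 10 genes for CTCF, cohesin and other architecture factors, RAD21 alone was covered, at 6.16% in double loss 1, and none of 9 silencing factors was. Of 11 protocadherin partners, CYFIP2, a subunit of the actin-regulating WAVE complex, was covered at 64.9% and 42.5% in the controls and 32.4% and 24.7% in double loss (limma adjusted p = 0.517). No gene of these 4 lists was called.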

How the data were processed

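LaminB1 CUT&RUN libraries (75 bp read pairs, per the labels' protocols) were processed with Bowtie2 2.3.4.3, Picard and the hg38 build, per the submitters' processing notes. The sources used here do not name the tool that called the regions. Each of the 4 LaminB1 libraries has its own list of regions on a 1 kb grid. LaminB1 and control-library read counts per region, not normalized, a p-value and adjusted p-value, a log2 fold and a score were deposited, per the file headers. No adjusted p-value exceeded 0.05. The deposited score was 100 times the log2 fold, and the log2 fold was log2 of LaminB1 over control counts minus 1 constant per list (0.27, 0.32, 0.07 and 0.08 in control 1 and 2 and double loss 1 and 2). Regions with the same edges had equal control counts in 105 of 105 cases within groups and 3 of 154 between groups. The IgG samples were not analysed here as samples, and whether the control library is the IgG library is not given. Depth was judged by reads in regions, since whole-library totals were not used here. No per-sample column was left unused (0).

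Covered shares were computed with Python 3.11.15, numpy 2.4.6 and pandas 2.3.3 from the RefSeq gene table (GRCh38.p14, the build of hg38), and figures with matplotlib 3.10.9. Start windows used the 15819 genes whose strand the promoter table gives; the 6 members not in it were given the strand of their array. Shares on the arcsine square root scale were compared with limma 3.58.1 (R 4.3.3) with a trended variance (Benjamini-Hochberg over all genes covered in at least 1 list, threshold 0.05). The code was first run on simulated shares with a small spread. Unlike the data, these did not swing between uncovered and covered within a group, so that run gives no error rate for the calls. For stretches, group means were compared with two-sided exact permutation tests over the 6 assignments of the libraries. Named genes were, beside calls, the first and last of each array, those with the 3 largest and 2 smallest window differences per array, the C-type genes, non-members between the arrays, the 3 nearest genes on each side, and TOP2A, TOP2B and LMNB1; further members were named after their values were seen. Alternatives changed the region threshold, width, merging, flanks, window, variance trend and blocking, and left out each library. The members and lists were chosen with earlier results of these data known.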

Additional observations from a re-analysis of the deposited data

How the results depend on the processing

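The 3 body calls, PCDHB1, PCDHB5 and PCDHB6, depended on the settings. They were 0 with a replicate block, 0 with 10 kb added on each side of the gene, 1 (PCDHB2) with the upper 50% of regions, ranked by log2 fold, and 5 without trended variance. They were 7 without control 1, 5 without control 2, 9 without double loss 1 and 3 without double loss 2, and included these 3 genes each time. With 10 kb flanks the differences were 62.6, 91.9 and 100 points. The 0 window calls became 2 (PCDHAC1 and PCDHB2) with the upper 50%, 3 with regions at an adjusted p of at most 0.01, 3 without trended variance and 7 without control 1, 5 without control 2, 6 without double loss 1 and 11 without double loss 2; 8 of the 11 were alpha starts that double loss 1 alone covered. A fit with no filter on covered genes could not be made. With 1 library left out, the lone one is assumed to vary like the others, so those counts are not read as calls. In each of those fits, more bodies and windows passed over all genes than in the main fit. The rise was thus not limited to the members. Over all genes, 68 of 1009 windows were called with the upper 50%, and 82 of 1677 with regions at an adjusted p of at most 0.01. Without trended variance, 99 of 1720 windows and 146 of 3058 bodies were called.

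Leaving out each library gave differences of 21.4 to 47.0 points for alpha, 16.2 to 27.2 for beta, -2.74 to 26.9 for gamma and 19.3 to 28.2 for the cluster. The contrasts ranged from -26.5 to 1.58 (beta minus alpha), -3.90 to 23.2 (beta minus gamma) and -49.7 to 5.48 (gamma minus alpha). Gained sequence was 126 to 180 kb (180 without control 2, 138 without double loss 2) and lost sequence 1 to 24 kb. By their definitions, leaving out a library can only keep or raise these 2 lengths. Lost sequence was 0 with the upper 50% and with merging. Of single members, the PCDHGA1 body ranged from -2.74 to 26.9 points, and the windows of PCDHAC2 from -20.0 to 75.2, PCDHGC3 from -5.00 to 45.4 and PCDHGA6 from -84.4 to 15.6. The cause of these changes was not tested.

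Same-numbered libraries did not deviate together (correlation -0.02 for bodies, -0.03 for windows), so the replicate block shares only a number. With 2 libraries a group, edges of wide regions and sequence just under the region threshold limit each share.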

Other observations

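Pseudogenes and noncoding genes among the members had patterns much like those of the members next to them, with exceptions. PCDHB17P, a beta pseudogene next to PCDHB6, was 0% covered in both controls and 100% in both double-loss lists, like PCDHB5 and PCDHB6. PCDHB1-AS1, an RNA antisense to PCDHB1, was covered at 0.0974% and 47.2% in the controls and 52.8% and 93.6% in double loss, without overlap of these values. Control 2 and double loss 1 covered adjoining parts of it, from chr5:141063001 on and up to chr5:141063000, and shared none of its sequence. PCDHB19P, next to PCDHB15, was 100% covered in control 1 and 0% elsewhere, the pattern of PCDHB15, and PCDHB18P was at 0% in all 4 lists, as was its neighbour PCDHB14. PCDHGB9P, which lies after PCDHGA12, was at 0% in both controls, 18.5% in double loss 1 and 100% in double loss 2.

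The constant region that all alpha genes share (PCDHACT, chr5:140978949-141012344) was covered at 66.0% and 63.0% in the controls and 100% and 61.1% in double loss, so the groups overlapped there. PCDHA14, an alpha pseudogene, was 100% covered in control 2 and double loss 1 and 0% in the other lists. The vault RNA genes VTRNA1-1, VTRNA1-2 and VTRNA1-3, upstream of PCDHA1, were at 0% in all 4. These values are descriptions, without a test.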
